A study of Mus musculus with 51 samples.

Results

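The genes of TGF beta and activin signalling were followed through the development of the mouse limb bud: the ligands Tgfb1, Tgfb2 and Tgfb3, the TGF beta receptors Tgfbr1, Tgfbr2 and Tgfbr3, the activin subunits Inhba and Inhbb, the activin inhibitor Fst and the muscle growth inhibitor Mstn. They were chosen by name, and a gene was measured where a probe set (a group of short probes that reads 1 transcript) carried its symbol alone. 9 of the 10 genes had such probe sets, 21 in all, of 34958 probe sets and 18194 genes on the arrays, and Mstn was not analysed here. RNA came from whole limb buds and whole embryos of wild-type FVB mice between embryonic day (E) 9.5 and E13.5, 1 embryo per array and 51 arrays in 14 groups of tissue and stage. The stages were 1 day apart. Forelimb had 3, 5, 4, 5 and 5 arrays in the order of the 5 stages, hindlimb, sampled from E10.5, had 4, 5, 5 and 5, and whole embryo, the reference, had 2 per stage. The replicates of a stage came from 1 litter, so that stage and litter cannot be told apart, and their spread is that between littermates. Forelimb and hindlimb arrays of a stage may come from the same embryos, since the study's methods give a total of 5 embryos.

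TGF betas are secreted in a latent form, bound to latent TGF beta binding proteins in the matrix, and are released by integrins, thrombospondin and proteases. The active ligand binds the type II receptor Tgfbr2, which recruits and phosphorylates the type I receptor Tgfbr1, while the proteoglycan Tgfbr3 (betaglycan) presents ligand, TGF beta 2 in particular, to them. Activins are dimers of the Inhba and Inhbb products, signal through receptors of their own, and are neutralised by follistatin, the Fst product, and both branches end at Smad2 and Smad3. In the limb bud the pathway is known for its parts in cartilage condensation, tendon, joints and muscle.

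All values are log2 intensities, and a level is compared between groups only within a gene or probe set, because the brightness of a probe set depends on its sequence. A difference was called where it reached 2-fold at a Benjamini-Hochberg adjusted p under 0.001 over the 18194 genes (limma, all 14 groups in 1 fit), and "rose", "fell", "up-regulated" and "down-regulated" are used only of called differences. A quantile normalization repeated on the deposited values, the brightest probe set in place of the mean of a gene's probe sets, and a fit on the compared groups alone are named where they end a call. Errors are SD for levels and standard errors (SE) for differences. The tissue is a mixture of cells, and fewer cells of a type and less RNA per cell cannot be told apart. The limb genes lay with the titles of the arrays. Tbx5, the forelimb regulator, read 7.62 to 9.94 on forelimb and 5.11 to 6.27 on hindlimb arrays, and Pitx1, the hindlimb regulator, 4.47 to 5.67 and 9.81 to 10.9. Prrx1, a gene of limb mesenchyme, read 7.83 to 9.40 on forelimb, 8.75 to 9.39 on hindlimb and 5.96 to 7.32 on whole-embryo arrays. 13 arrays, those of whole embryo and of the earliest forelimb, stood apart from the other 38. The 3′ minus 5′ difference of the Gapdh probe sets was 1.48 to 2.85 on the former and -0.10 to 0.16 on the latter, and the spiked bacterial transcript Dap read 10.60 to 13.04 and 2.68 to 3.59. E9.5 forelimb against whole embryo, the limb groups from E10.5 on against each other and the whole-embryo stages against each other lie within 1 set. The other limb and whole-embryo comparisons, and E9.5 forelimb against any later limb, cross between the sets. 1 limb array, E10.5 hindlimb replicate 3, read 7.74 in the mean of 3 neuron markers, against 4.62 to 5.05 on the other 3 arrays of its group and at most 5.58 on any other limb array.

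The stretches before the transcription start are given for 3 members, a ligand, a receptor and an activin subunit, that rose between E10.5 and E13.5 in at least 1 limb and had a RefSeq promoter window (build GRCm38.p6). 7 of the 10 genes had a window, and Tgfb3, Tgfbr3 and Fst had none. Each sequence below is the 250 bases before the start, 5′ to 3′ on the gene's strand, and capitals mark the TATA motif TATAAA and the core Smad motif CAGAC, searched on both strands (TTTATA and GTCTG on the other).
Tgfb2, chr1:186705990-186706239, minus strand: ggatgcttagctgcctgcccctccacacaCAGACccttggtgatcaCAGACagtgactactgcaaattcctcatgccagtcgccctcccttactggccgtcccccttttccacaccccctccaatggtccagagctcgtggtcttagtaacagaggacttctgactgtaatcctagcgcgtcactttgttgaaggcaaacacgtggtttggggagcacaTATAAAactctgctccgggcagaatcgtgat
Tgfbr2, chr9:116175364-116175613, minus strand: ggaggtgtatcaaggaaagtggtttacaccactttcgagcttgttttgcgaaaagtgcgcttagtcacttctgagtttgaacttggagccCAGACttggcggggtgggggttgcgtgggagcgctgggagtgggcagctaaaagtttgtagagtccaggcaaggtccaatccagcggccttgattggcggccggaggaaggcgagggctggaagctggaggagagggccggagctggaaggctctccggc
Inhba, chr13:16011601-16011850, plus strand: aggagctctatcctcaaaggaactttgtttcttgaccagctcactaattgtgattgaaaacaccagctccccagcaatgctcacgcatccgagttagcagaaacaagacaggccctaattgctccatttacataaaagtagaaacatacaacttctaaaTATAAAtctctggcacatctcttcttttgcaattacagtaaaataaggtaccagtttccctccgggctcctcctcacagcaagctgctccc
The Tgfb2 window held TATAAA at -31 and CAGAC at -221 and -204, counted to the first base of the motif from the start, the Inhba window TATAAA at -91, and the Tgfbr2 window CAGAC at -160 and no TATAAA. Of 32851 windows of all genes (300 bases, 250 before and 50 after the start), 13.6% held TATAAA and 49.6% CAGAC on either strand. In RefSeq the other members lie on chromosome 7 (Tgfb1, 25687002 to 25705077), 12 (Tgfb3, 86056743 to 86079041), 4 (Tgfbr1, 47353222 to 47414926), 9 (Tgfbr2, 116087695 to 116175363), 5 (Tgfbr3, 107106567 to 107289629), 1 (Inhbb, 119415463 to 119422248) and 13 (Fst, 114452262 to 114458989). The starts of Tgfb2 and Inhba lie inside the annotated spans of their genes, 186622787 to 186709697 on chromosome 1 and 16004256 to 16031609 on chromosome 13, so that each gene has at least 1 start further upstream. A match of letters describes the window and is not a measured binding site.

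Among the 3 TGF beta ligands, Tgfb2 differed most between the limbs. The 5 E10.5 forelimb arrays read 8.38, 8.40, 7.86, 8.33 and 8.44, and the 4 E10.5 hindlimb arrays 5.72, 5.95, 5.90 and 6.11. Every forelimb array was above every hindlimb array, and the hindlimb level was the lowest of all 14 groups, below both whole-embryo arrays of the stage (7.06 and 7.25). Forelimb exceeded hindlimb by 2.36 ± 0.09 (SE, adjusted p = 3.97e-24), which is 5.13-fold. All 4 probe sets of Tgfb2 were called in this comparison when fitted singly, with differences of 2.12, 2.30, 2.56 and 2.45. 1 of the 9 members was called, against 0.566% of all genes, and Tgfb2 had rank 2 by forelimb excess of the 18194 genes.

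At E11.5 the limbs were close on the mean of the probe sets, with every forelimb array still above every hindlimb array (9.05 to 9.19 and 8.70 to 8.89). By 1423250_a_at alone the E11.5 means were 9.83 in forelimb and 9.92 in hindlimb. Hindlimb Tgfb2 rose from 5.92 ± 0.16 (SD, n = 4) at E10.5 to 8.83 ± 0.08 (SD, n = 5) at E11.5, by 2.91 ± 0.09 (SE, adjusted p = 2.49e-27, 7.51-fold). It then read 9.34 at E12.5 and 9.54 at E13.5. The latter was the highest of the 14 group means, although its arrays overlapped with those of E12.5 forelimb (9.39). Forelimb Tgfb2 read 8.14, 8.28, 9.09, 9.39 and 9.15 over the 5 stages, and no step between consecutive stages was called. The forelimb minus hindlimb difference was 0.26 ± 0.09 at E11.5 (adjusted p = 0.102), 0.05 ± 0.08 at E12.5 (adjusted p = 0.796) and -0.39 ± 0.08 at E13.5 (adjusted p = 0.00177), and at this last stage every hindlimb array was above every forelimb array. The change from E10.5 to E13.5 was smaller in forelimb than in hindlimb by 2.75 log2 (-2.75 ± 0.12, SE, adjusted p = 8.00e-21). Tgfb2 was the 1 member of 9 called in this difference of changes, against 0.918% of all genes.

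**Figure D1:**
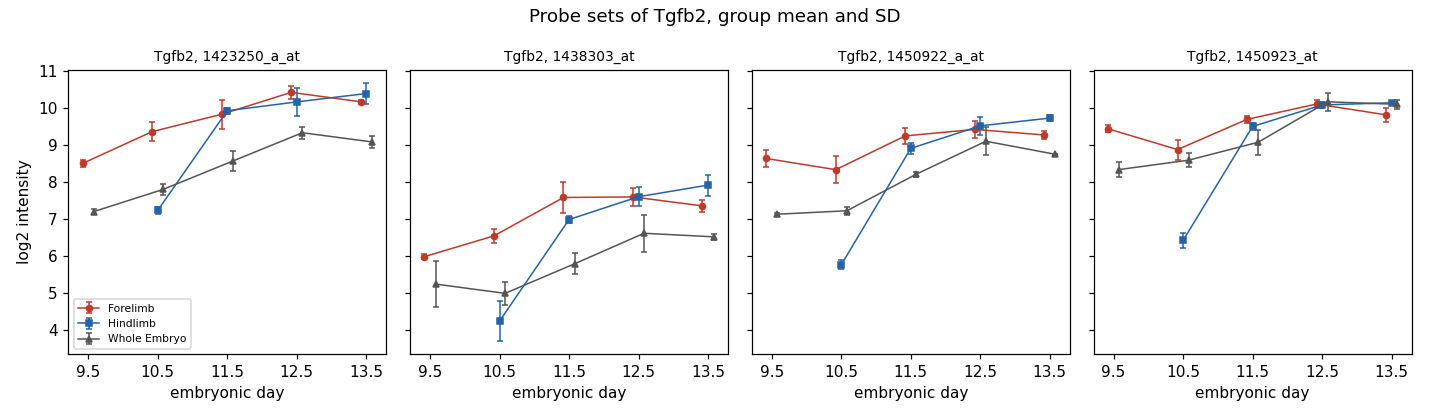
Levels of the 4 probe sets of Tgfb2 (log2 intensity, vertical) against embryonic day (horizontal); points are group means and bars SD, with forelimb in red, hindlimb in blue and whole embryo in grey. In each panel the E10.5 hindlimb point lies 2.12 to 2.56 below the E10.5 forelimb point, and the limbs lie closer together from E11.5 on. In 1438303_at forelimb and hindlimb read 7.59 and 6.99 at E11.5, and 7.36 and 7.92 at E13.5.

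Other genes differed between the limbs at E10.5 too. Over all 18194 genes, 76 were called higher and 27 lower in forelimb, Tgfb2 included. 2 of the 5 cartilage markers were higher in forelimb, the cartilage collagens Col9a1 (1.27 ± 0.13) and Col2a1 (1.09 ± 0.18), as were the tendon regulator Mkx (1.54 ± 0.15, 1 of 3 tendon markers) and the early muscle regulator Myf5 (2.12 ± 0.18, 1 of 7 muscle markers). The mean log2 level of the cartilage list was 7.20 ± 0.20 (SD) over the 5 forelimb arrays and 6.48 ± 0.11 over the 4 hindlimb arrays, and no array of the one overlapped with the other. The part of these cells in the Tgfb2 difference was not tested. Without E10.5 hindlimb replicate 3 the forelimb excess of Tgfb2 was 2.35 and the hindlimb rise to E11.5 was 2.90. Of the 58 measured genes of the pathway beside the members, 1 was higher in forelimb, the collagen and target gene Col1a1 (1.14 ± 0.20), and 1 lower, the growth factor binding protein Wfikkn1 (-1.10 ± 0.15). The median difference was 0.19 over these 58 genes and -0.03 over all genes.

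The study also sets forelimb against hindlimb of the next stage, to allow for the later start of the hindlimb. The delay it gives is shorter than the 1 day between stages. In this comparison E9.5 forelimb Tgfb2 exceeded E10.5 hindlimb by 2.22 ± 0.10 (SE, adjusted p = 7.54e-22), across the sets of arrays. E10.5 forelimb lay below E11.5 hindlimb by 0.55 (-0.55 ± 0.08, adjusted p = 3.70e-06, not called for its size), with every forelimb array lower. Against whole embryo of the same stage, Tgfb2 was up-regulated in forelimb from E9.5 to E11.5 (1.16 ± 0.12, 1.13 ± 0.11 and 1.17 ± 0.12) and down-regulated in E10.5 hindlimb (-1.23 ± 0.12). The size of these differences varied with the probe set. At E10.5, 1423250_a_at read 9.36 in forelimb, 7.24 in hindlimb and 7.81 in whole embryo, and 1450923_at read 8.88, 6.43 and 8.59. The E9.5 difference lies within 1 set of arrays, with 8.18, 8.15 and 8.10 in forelimb and 7.06 and 6.91 in whole embryo, and it was not called when these 5 arrays were fitted alone (adjusted p = 0.00819, with 19 genes called in place of 671). At E12.5 and E13.5 forelimb exceeded whole embryo by 0.58 and 0.54, and hindlimb from E11.5 on by 0.92, 0.54 and 0.93, none of them called. Hindlimb Tgfb2 rose by 3.62 ± 0.09 between E10.5 and E13.5 and whole-embryo Tgfb2 by 1.46 ± 0.13, and the difference of these changes was called (2.16 ± 0.16, adjusted p = 8.96e-15). When the arrays were quantile normalized again, the forelimb calls against whole embryo were lost (0.95, 0.78 and 0.83), and the calls in hindlimb and between the limbs were kept. With the brightest probe set alone, the E10.5 hindlimb call against whole embryo was lost (-0.57, adjusted p = 0.0117). That probe set gained calls against whole embryo in forelimb at E12.5 (1.09) and E13.5 (1.08), and in hindlimb at E11.5 (1.36) and E13.5 (1.30), all across the sets of arrays.

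Tgfb3, read by 1 probe set, rose with age in every tissue. The whole-embryo pairs read 6.25 and 5.06 at the first stage, then 6.13 and 6.56, 7.01 and 7.22, 8.52 and 8.62, and 9.51 and 9.35 at the last. Forelimb went from 7.51 ± 0.24 (SD, n = 5) at E10.5 to 9.32 ± 0.15 (SD, n = 5) at E13.5, a rise of 1.81 ± 0.14 (SE, adjusted p = 1.81e-15), and hindlimb from 6.87 ± 0.41 (SD, n = 4) to 8.91, 9.02, 8.89, 9.09 and 9.08 at E13.5, a rise of 2.13 ± 0.14 (SE, adjusted p = 6.86e-17). Whole embryo rose by 3.08 ± 0.22 (SE, adjusted p = 6.49e-16), more than forelimb: the difference of the 2 changes was -1.27 ± 0.25 (SE, adjusted p = 6.75e-05). Without E10.5 replicate 1 or E13.5 replicate 1 of whole embryo this difference was -1.06 (adjusted p = 0.00402) and -1.19 (adjusted p = 0.00142), past 2-fold but not past the adjusted p, and after renewed quantile normalization it was -0.87.

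Forelimb was ahead of whole embryo at the middle stages. Its Tgfb3 was up-regulated by 1.16 ± 0.18 at E10.5 and by 1.15 ± 0.19 at E11.5, and both calls were lost on renewed quantile normalization (0.78 and 0.71) and the first without E10.5 replicate 1 of whole embryo (0.95). Hindlimb differed from whole embryo by 0.53 and 0.89 at these stages, with no call. At E13.5 forelimb and whole embryo arrays overlapped (-0.11 ± 0.18, adjusted p = 0.644). Between consecutive stages Tgfb3 rose in forelimb from E9.5 to E10.5 (1.22 ± 0.16, across the sets of arrays) and in hindlimb from E10.5 to E11.5 (1.14 ± 0.14), which were 0.83 after quantile normalization and 0.99 without E10.5 hindlimb replicate 3, respectively. Forelimb stood above hindlimb by 0.64, 0.26, 0.67 and 0.32 from E10.5 to E13.5. At E12.5 all 5 forelimb arrays (8.63 to 8.89) were above all 5 hindlimb arrays (at most 8.26), with an adjusted p of 7.42e-04 but less than 2-fold.

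Tgfb1 varied least of the 3 ligands. Its group means spanned 0.94 log2 over the 14 groups and 0.17 over the 8 limb groups from E10.5 on, and no comparison was called. Its 2 probe sets did not move together. 1420653_at read 6.13 to 6.50 on average in these limb groups and 5.00, 4.96, 5.92 and 6.88 in whole embryo from E10.5 to E13.5. 1445360_at stayed between 3.67 and 4.44 in all groups. With the brighter set alone Tgfb1 was up-regulated against whole embryo at E10.5 and E11.5 in both limbs (by at least 1.45), across the sets of arrays, and rose in whole embryo from E10.5 to E13.5 (1.88). By that probe set the limb change over this span minus the whole-embryo change was also called, at -2.14 in forelimb and -2.20 in hindlimb.

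**Figure D2:**
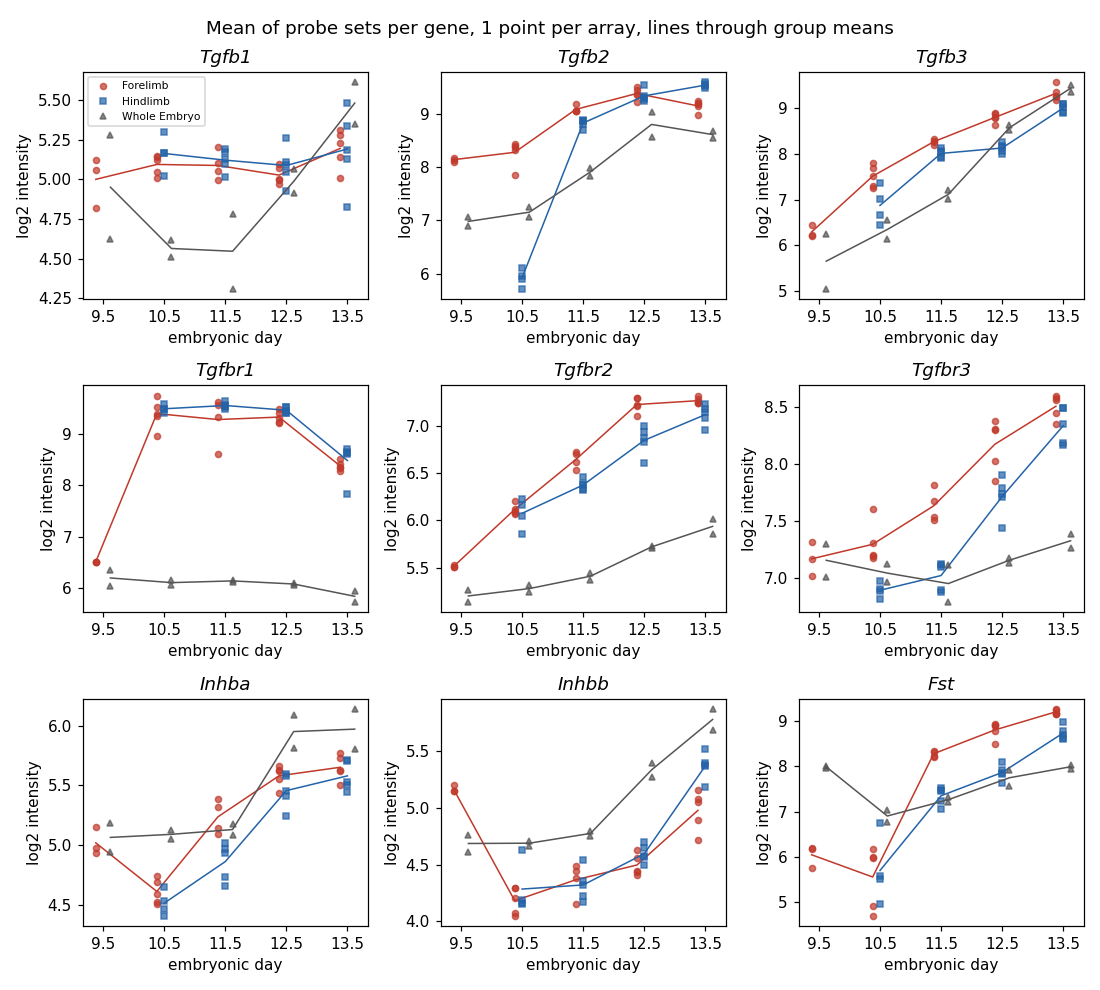
Log2 intensity (vertical, mean of a gene's probe sets) against embryonic day (horizontal) for the 9 measured genes, 1 point per array and lines through the group means, with forelimb in red circles, hindlimb in blue squares and whole embryo in grey triangles. Tgfb2 is lowest in E10.5 hindlimb (5.92), Tgfb3 climbs in all 3 tissues, and Fst climbs steeply in both limbs after E10.5. Each panel has its own vertical scale, and the lines from E9.5 to E10.5 forelimb join the 2 sets of arrays.

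The receptors differed in how far their probe sets agreed. Tgfbr1 had 3. 1420895_at was bright in every group, with group means of 10.49 to 11.56. 1420893_a_at read 3.56 to 4.11 in the whole-embryo groups and 4.04 in E9.5 forelimb, and 6.76 to 8.94 in the later limb groups, and 1420894_at read 3.25 to 4.29 and 7.03 to 8.35. In these last 2 probe sets E9.5 forelimb lay with whole embryo, as it does in the sets of arrays. The part of the array set in these differences was not tested.

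Averaged over its probe sets, Tgfbr1 was up-regulated in every limb group from E10.5 to E13.5 against whole embryo, by 3.28, 3.13, 3.24 and 2.53 in forelimb and 3.38, 3.41, 3.37 and 2.64 in hindlimb. All 8 comparisons cross the sets. At E9.5, within a set, the forelimb arrays read 6.52, 6.51 and 6.52 and the whole-embryo arrays 6.36 and 6.04, a difference of 0.31 ± 0.19 (adjusted p = 0.227). With 1420895_at alone the differences were 0.22 to 0.85, and none was called. The rise in forelimb from E9.5 to E10.5 (2.88 ± 0.15) and the lower level of E9.5 forelimb than E10.5 hindlimb (-2.97 ± 0.16) also cross the sets, and with 1420895_at alone they were 0.28 and -0.01. Among the later limb arrays, Tgfbr1 fell from E10.5 to E13.5 by 1.01 in forelimb (-1.01 ± 0.13, adjusted p = 7.11e-09) and by about as much in hindlimb (-1.004 ± 0.14, adjusted p = 3.59e-08), just past 2-fold. 1420893_a_at fell by 1.74 and 2.18 and 1420894_at by 1.15 and 1.17, while 1420895_at differed by -0.15 in forelimb and by 0.34 in hindlimb, the opposite direction. These calls were lost on quantile normalization (-0.90 and -0.95). The forelimb call was lost without E10.5 replicate 2 (-0.93), E10.5 replicate 5 (-0.98) or E13.5 replicate 4 (-0.99), and the hindlimb call without E10.5 replicate 4 (-0.97) or E13.5 replicate 4 (-0.84). The group means from E10.5 to E13.5 were 9.39, 9.28, 9.32 and 8.38 in forelimb and 9.49, 9.55, 9.46 and 8.48 in hindlimb. The difference thus lay in the last step, which in hindlimb was -0.98 and not called. It was called without E13.5 hindlimb replicate 1, 2, 3 or 5 (-1.03 to -1.01). Forelimb and hindlimb arrays overlapped at all 4 shared stages.

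Tgfbr2, the type II receptor, rose between E10.5 and E13.5 in both limbs, with no step between consecutive stages called on the average of its probe sets. Forelimb arrays read 6.10, 6.20, 6.08, 6.12 and 6.07 at E10.5 and 7.23, 7.24, 7.28, 7.25 and 7.32 at E13.5, and the 2 stages were far apart. The rise was 1.15 ± 0.06 (SE, adjusted p = 3.47e-20) in forelimb and 1.04 ± 0.07 (SE, adjusted p = 7.07e-18) in hindlimb, the latter 0.97 without E10.5 hindlimb replicate 1. Whole embryo differed by 0.66 ± 0.10, which was not called. The brightest probe set, 1426397_at, carried the rise, with 2.48 in forelimb and 2.71 in hindlimb, and with it alone whole embryo rose too, by 2.16. With it alone the hindlimb step from E12.5 to E13.5 was also called (1.18). 1422019_at stayed between 2.90 and 3.22 in all groups. Against whole embryo, Tgfbr2 was up-regulated in forelimb from E11.5 on (1.23 ± 0.09, 1.51 ± 0.08 and 1.33 ± 0.08) and in hindlimb from E12.5 on (1.13 ± 0.08 and 1.18 ± 0.08), across the sets. 1425444_a_at, with group means of 4.67 to 5.36 on the 13 arrays that stood apart and 6.66 to 8.18 on the others, added to this. With 1426397_at alone the 2 hindlimb differences were 0.87 and 0.84 and no longer called, and the forelimb calls were kept (1.20, 1.48 and 1.01). Forelimb exceeded hindlimb by 0.38 ± 0.06 at E12.5, with every forelimb array higher (adjusted p = 3.38e-05, less than 2-fold).

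Tgfbr3, the ligand-presenting coreceptor, read higher in forelimb than in hindlimb at the early stages, with no call. At E11.5 the 4 forelimb arrays read 7.51, 7.68, 7.54 and 7.81 and the 5 hindlimb arrays 7.09, 7.11, 7.12, 6.88 and 6.90. No array overlapped, and the difference was 0.61 ± 0.10 (SE, adjusted p = 6.39e-05), under 2-fold. At E10.5 it was 0.40, again with no overlap, and at the last 2 stages 0.46 and 0.17, with overlap. With the brighter probe set, 1433795_at, it was 0.71 at E10.5 and 0.76 at E11.5. Between E10.5 and E13.5 Tgfbr3 rose by 1.21 ± 0.10 in forelimb and 1.45 ± 0.10 in hindlimb, and differed by 0.28 ± 0.15 in whole embryo (adjusted p = 0.131). The change in hindlimb exceeded that in whole embryo by 1.16 ± 0.18 (adjusted p = 1.54e-06), and by 0.98, no longer called, with the brighter probe set alone. Against whole embryo, Tgfbr3 was up-regulated in E12.5 forelimb (1.02 ± 0.13), E13.5 forelimb (1.18 ± 0.13) and E13.5 hindlimb (1.01 ± 0.13). These 3 calls rested on the dimmer probe set: with 1433795_at alone they were 0.30, 0.11 and -0.052, the last in the opposite direction. The E12.5 forelimb call was also lost without E12.5 forelimb replicate 2, 4 or 5 or E12.5 whole-embryo replicate 2 (0.97 to 1.00), and the hindlimb call without E13.5 hindlimb replicate 2 or 3 or E13.5 whole-embryo replicate 2 (0.95 to 0.97), and both after quantile normalization (0.91 and 1.00). With 1433795_at alone, Tgfbr3 was down-regulated in E10.5 hindlimb against whole embryo (-1.03). By the same probe set E9.5 forelimb exceeded E10.5 hindlimb (1.26, called), and both of these comparisons cross the sets.

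For the activin subunits no difference between the limbs was called. Inhba, which forms activin A, had 1 probe set with range, 1422053_at (group means 5.24 to 8.02), and 1 that stayed between 3.58 and 4.18. Averaged over both, Inhba rose from 4.61 ± 0.10 (SD, n = 5) at E10.5 to 5.65 ± 0.10 (SD, n = 5) at E13.5 in forelimb, by 1.04 ± 0.08 (SE, adjusted p = 6.21e-15), and in hindlimb by 1.06 ± 0.09 (SE, adjusted p = 1.82e-14). By 1422053_at alone the rise was 2.09 and 2.22, the forelimb step from E10.5 to E11.5 (1.22) and the hindlimb step from E11.5 to E12.5 (1.21) were called, and whole embryo rose by 1.94. All 4 E11.5 forelimb arrays (5.10 to 5.39) were above all 5 E11.5 hindlimb arrays (4.66 to 5.02), a difference of 0.37 ± 0.09 (adjusted p = 0.00429), and at the other stages the limbs overlapped. At those same stages Inhba read lower in each limb than in whole embryo, with differences of -0.58 to -0.32 and no call.

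Inhbb, which forms activin B, rose between E10.5 and E13.5 in hindlimb by 1.08 ± 0.09 (SE, adjusted p = 2.19e-14) and in whole embryo by 1.09 ± 0.13 (SE, adjusted p = 3.64e-09), and differed by 0.80 in forelimb. The hindlimb arrays read 4.63, 4.16, 4.16 and 4.18 at E10.5 and 5.19, 5.38, 5.37, 5.39 and 5.51 at E13.5. At E13.5 every hindlimb array was above every forelimb array (4.72 to 5.15), with forelimb minus hindlimb at -0.39 ± 0.08 (adjusted p = 0.0016). The rises came from 1426858_at (1.85 and 2.15), and with the brighter probe set alone they were 0.32 and 0.03. The hindlimb call was also lost on quantile normalization (0.98), and the whole-embryo call, 1.00, fell just short of 2-fold without E13.5 whole-embryo replicate 1.

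Fst rose most of all members in forelimb. At E10.5 the forelimb arrays read 5.99, 6.01, 4.71, 4.92 and 6.17 and the hindlimb arrays 4.97, 5.57, 6.75 and 5.52, a spread larger than at any other limb stage. At E11.5 the forelimb arrays read 8.21, 8.33, 8.24 and 8.35 and the hindlimb arrays 7.06, 7.46, 7.53, 7.25 and 7.47. The arrays of the 2 stages did not overlap in either limb. The rise was 2.72 ± 0.22 (SE, adjusted p = 1.77e-13, 6.59-fold) in forelimb and 1.65 ± 0.22 (SE, adjusted p = 5.58e-08, 3.14-fold) in hindlimb. By E13.5 forelimb stood at 9.20 ± 0.05 (SD, n = 5) and hindlimb at 8.74 ± 0.15 (SD, n = 5), 3.64 ± 0.20 and 3.03 ± 0.22 above E10.5. Both probe sets rose in both limbs, by 2.44 to 4.19. The change in whole embryo, 1.09 ± 0.32, was not called in the fit of all groups (adjusted p = 0.00529). It was called when fitted on the compared groups alone (adjusted p = 7.14e-04) and without E10.5 hindlimb replicate 3 (adjusted p = 8.61e-04). The limb changes exceeded that of whole embryo by 2.56 ± 0.38 in forelimb (adjusted p = 5.68e-07) and 1.95 ± 0.39 in hindlimb (adjusted p = 6.94e-05). The hindlimb excess was 1.81 (adjusted p = 0.00168) without E10.5 whole-embryo replicate 1, past 2-fold but not past the adjusted p. Fitted on the compared groups alone, the hindlimb rise to E11.5 (adjusted p = 0.00132) and the hindlimb excess (adjusted p = 0.00237) were not past it either. Without E10.5 hindlimb replicate 3, the array of high neuron markers, the hindlimb rise to E11.5 was 1.998 (adjusted p = 7.36e-11) and the excess 2.30 (adjusted p = 3.30e-07).

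Early limb Fst was below whole embryo. At E9.5, within a set, it was down-regulated by 1.94 (-1.94 ± 0.30, adjusted p = 1.74e-06), with 6.19, 6.21 and 5.76 in forelimb and 7.97 and 8.01 in whole embryo. Fitted on these 5 arrays alone, where 19 genes were called in place of 671, the adjusted p was 0.00625 and the call was lost. At E10.5 it was down-regulated in forelimb (-1.35 ± 0.27) and hindlimb (-1.20 ± 0.28), and up-regulated in forelimb at E12.5 (1.05 ± 0.27, adjusted p = 8.61e-04) and E13.5 (1.21 ± 0.27, adjusted p = 1.82e-04), all across the sets. At E11.5 the forelimb difference was 1.01, also across the sets, and was not called in the fit of all groups. It was called on the compared groups alone (adjusted p = 6.10e-05), and without E10.5 hindlimb replicate 1 or 3 or E10.5 forelimb replicate 3. The calls at E12.5 and E13.5 rested on 1421365_at: with the brighter probe set alone they were 0.03 and 0.46. The E12.5 call lay so near the adjusted p threshold that leaving out any of many single arrays of E11.5 to E13.5 lost it (0.88 to 1.23), as did quantile normalization (0.82). The E13.5 call was lost without either whole-embryo array (1.17 and 1.26), the E10.5 forelimb call without E10.5 whole-embryo replicate 1 (-1.21), and the E10.5 hindlimb call without either whole-embryo array or without hindlimb replicate 1, 2 or 4 (-1.34 to -0.96), while without hindlimb replicate 3 it was kept (-1.55). Fitted on the compared groups alone, both E10.5 calls were lost (adjusted p = 0.0108 in forelimb and 0.0346 in hindlimb). Between the limbs, forelimb exceeded hindlimb by 0.93 ± 0.22 at E11.5 (adjusted p = 0.00507) and 0.94 ± 0.20 at E12.5 (adjusted p = 0.00168), with no overlap of arrays from E11.5 on and no call. E10.5 forelimb lay 1.79 below E11.5 hindlimb (-1.79 ± 0.20, adjusted p = 7.89e-09).

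The muscle list was read on the same arrays. The mean level of its 7 markers was 5.12 to 6.66 on the E10.5 and 8.01 to 8.18 on the E11.5 forelimb arrays, and 4.79 to 6.85 and 6.83 to 7.84 on the hindlimb arrays. The E10.5 hindlimb array of highest Fst (replicate 3, 6.75) also had the highest muscle level (6.85), whereas E10.5 forelimb replicate 4 had the highest muscle level of its group (6.66) and an Fst of 4.92. The part of muscle cells in the Fst values was not tested.

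**Figure D3:**
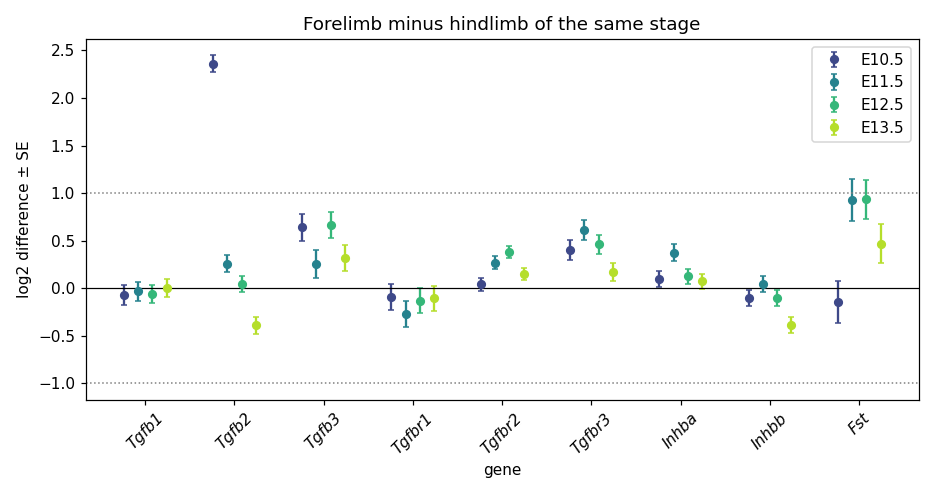
Forelimb minus hindlimb of the same stage (log2 difference with SE, vertical) for the 9 measured genes (horizontal), 1 colour per stage from E10.5 to E13.5; dotted lines mark a 2-fold difference either way. Tgfb2 at E10.5 (2.36) is the only point past the lines, Fst at E11.5 and E12.5 lies just under them (0.93 and 0.94), and Tgfb2 at E13.5 lies below 0 (-0.39).

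Counted over the members, limb and whole embryo differed as follows. 2 of 9 members were called in E9.5 forelimb (Tgfb2 up, Fst down), against 3.69% of all genes. In forelimb from E10.5 to E13.5, 4 of 9 were called at each stage, against 13.93%, 15.32%, 13.96% and 13.66% of all genes, all of them up apart from Fst at E10.5. In hindlimb at the same stages 3, 1, 2 and 3 of 9 were called, against 13.18%, 15.71%, 12.54% and 14.45%, with Tgfb2 and Fst down at E10.5 and the others up. Tgfbr1 was 1 of them in each of these 8 comparisons, which cross the sets of arrays. The median of the 9 members was 1.01 in E11.5 forelimb and 0.09 over all genes, and -0.15 in E10.5 hindlimb and 0.04 over all genes.

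**Figure D4:**
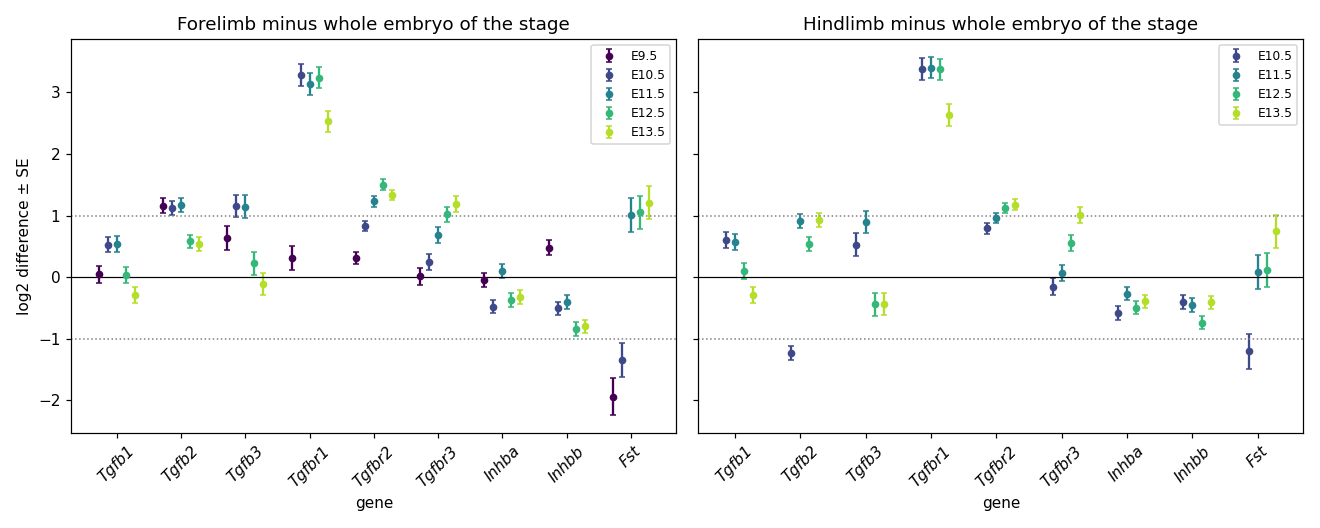
Limb minus whole embryo of the same stage (log2 difference with SE, vertical) for the 9 measured genes (horizontal), forelimb on the left and hindlimb on the right, 1 colour per stage; dotted lines mark a 2-fold difference. Tgfbr1 is highest (2.53 to 3.41 from E10.5 on, across the 2 sets of arrays), Tgfbr2 in forelimb lies past 2-fold from E11.5 on (1.23, 1.51 and 1.33), and Fst moves from -1.94 at E9.5 to 1.21 at E13.5 in forelimb.

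Between the limbs, no member was called from E11.5 to E13.5, where 0.412%, 0.506% and 0.286% of all genes were. Against hindlimb of the next stage, 2 of 9 were called at E9.5 (6.10% of all genes), 1 at E10.5 (0.989%), and none at E11.5 (0.280%) or E12.5 (1.46%). Between consecutive forelimb stages, 2, 1, 0 and 0 of 9 were called, against 7.54%, 2.07%, 0.764% and 2.71% of all genes, and between consecutive hindlimb stages 3, 0 and 0, against 2.32%, 0.824% and 1.95%. Over the longer span from E10.5 to E13.5, 6 of 9 were called in forelimb (5 up and Tgfbr1 down, against 10.56% of all genes), 8 in hindlimb (7 up and Tgfbr1 down, 11.15%) and 3 in whole embryo (all up, 11.17%). These 3 comparisons had medians of 1.04, 1.08 and 0.92 over the members and -0.03, -0.08 and 0.05 over all genes. The change in forelimb differed from that in whole embryo for 2 of 9 members (12.34% of all genes) and the change in hindlimb for 3 (11.99%). These 2 comparisons share the whole-embryo arrays.

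The rest of the pathway was read from lists of 63 genes, of which 58 were measured. From E10.5 to E13.5, 19 rose and 1 fell in forelimb, 21 rose and 2 fell in hindlimb, and 19 rose and 2 fell in whole embryo. Over all 18194 genes the same calls were 988 up and 934 down in forelimb, 1090 and 938 in hindlimb, and 1797 and 236 in whole embryo. Of 11 genes that bind or activate latent TGF beta, 7 rose in forelimb, led by the latent binding proteins Ltbp3 (2.46 ± 0.07) and Ltbp1 (1.68 ± 0.09) and the activator thrombospondin Thbs1 (2.11 ± 0.12), with a median of 1.49. Of 9 matrix and other target genes, 7 rose in forelimb and 8 in hindlimb, led in forelimb by the matrix protein genes Postn (5.22 ± 0.21), Tnc (3.65 ± 0.20) and Col1a1 (3.64 ± 0.19), with a median of 2.09. Of 6 extracellular inhibitors 3 rose in forelimb, the proteoglycans Dcn (4.09 ± 0.10) and Bgn (2.38 ± 0.13) and the follistatin-like Fstl1 (1.52 ± 0.09), and the same 3 rose in hindlimb, where Wfikkn1 fell (-1.46 ± 0.15).

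Of 14 Smads and their regulators, 1 rose in forelimb, the Smad inhibitor Pmepa1 (1.24 ± 0.08), and 2 in hindlimb, Pmepa1 (1.49 ± 0.08) and the Smad corepressor Ski (1.39 ± 0.17), where 10.56% and 11.15% of all genes were called in either direction. Of 10 other receptors and coreceptors, the activin receptor Acvr2b fell in forelimb (-1.52 ± 0.15) and hindlimb (-1.29 ± 0.16), and of 8 other ligands the inhibin subunit Inha rose (1.61 ± 0.13 and 1.95 ± 0.14). At E9.5 against whole embryo, within 1 set of arrays, 3 of the 58 were higher in forelimb, the proteases Mmp2 (1.71 ± 0.20) and Mmp14 (1.23 ± 0.16) and the pseudoreceptor Bambi (1.51 ± 0.11), and 2 lower, the integrin Itgb8 (-3.90 ± 0.26) and the matricellular gene Ccn2 (-1.63 ± 0.18). Over all 18194 genes, 378 were called higher and 293 lower in this comparison.

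Cell markers changed from E10.5 to E13.5 as well, a span over which 988 of all 18194 genes rose and 934 fell in forelimb. From E10.5 to E13.5 forelimb, 4 of 5 cartilage, 2 of 3 tendon and 3 of 4 macrophage markers rose, 5 of 7 muscle markers rose and 1 fell, and 3 of 3 erythroid markers fell. Between these groups, each of 5 arrays, the mean level of the cartilage list went from 7.20 ± 0.20 (SD) to 10.34 ± 0.13, that of the muscle list from 5.79 ± 0.56 to 9.07 ± 0.08, that of the macrophage list from 5.98 ± 0.18 to 7.23 ± 0.16, and that of the erythroid list from 10.26 ± 0.30 to 5.34 ± 0.05. None of the 5 endothelial markers was called in either limb. Their part in the rise of the members was not tested.

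Over the 8 limb group means from E10.5 to E13.5, 8 of the 9 measured members spanned at least 1 log2, and for each the closest patterns were sought among 3085 genes with that span by Pearson correlation. These points share litters and a trend with age, and so many genes correlate closely. Tgfb2 was closest to Egflam (r = 0.995), Zfhx4 and Mfap4, Tgfb3 to Eps8 (r = 0.994), Thbs3 and Thra, and Tgfbr2 to Rcn3 (r = 0.999), Slc14a1 and P4ha2. Tgfbr1 was closest to Ttc9c (r = 0.990), Rab39b and Dvl2, and Tgfbr3 to Sfmbt2 (r = 0.994), Irx2 and Gpc4. Inhba was closest to Runx3 (r = 0.997), Mia and Frrs1l, Inhbb to Stk32b (r = 0.991), Col24a1 and Rgs7bp, and Fst to Mymx (r = 0.996), a fusion factor of myoblasts, Olfml2b and Fcrls. Among the members, Tgfbr2 and Inhba had the highest correlation (r = 0.983), and Tgfbr1 and Inhbb the most negative (r = -0.888).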

How the data were processed

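Gene expression was measured on 51 whole-genome mouse arrays of 45101 probe sets, 1 embryo per array. Per the study's methods, the authors made 1 value per probe set by RMA with its defaults (version not given in the sources used here), which includes background correction and quantile normalization, and replaced the values under a blemish on 1 whole-embryo array. The deposited values are linear intensities, and they were put on the log2 scale for every step here. 34958 probe sets with 1 gene symbol in the platform annotation were used, 932 with several symbols and 9211 without an entry were left out, and log2 values were averaged per gene (18194 genes).

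All 14 groups were fitted with limma 3.58.1 in R 4.3.3 (37 residual degrees of freedom, empirical Bayes), with 30 comparisons, and single probe sets were fitted in the same way over all 34958. A call needed a fold of 2 and an adjusted p under 0.001. Groups follow the array titles, also for the 2 arrays whose other labels disagree; their Tbx5, Tbx4 and Pitx1 levels match the titles. Named are all members, up to 3 called genes of largest change per list and comparison described, and the 3 genes closest in pattern to each member. The members and gene lists were chosen with earlier results of these data known, so no list was tested. Precision is limited by the number of arrays. The alternatives were another probe set rule, renewed quantile normalization, a filter on dim genes, separate fits, an intensity trend, the 2 arrays left out, each replicate left out and a replicate block.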

Additional observations from a re-analysis of the deposited data

Results flagged for a closer look

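4 of 72 sets of values (9 genes in the limb groups of 4 or 5 arrays) had 1 array far from the others, and chance alone gives about 1 in 20, or 3.6. Tgfb2 read 7.86 on E10.5 forelimb replicate 3 and 8.33 to 8.44 on the others, and 9.19 on E11.5 forelimb replicate 3 against 9.05 to 9.06. Tgfbr1 read 7.83 on E13.5 hindlimb replicate 4 and 8.61 to 8.70 on the others. Inhbb read 4.63 on E10.5 hindlimb replicate 1 and 4.16 to 4.18 on the others.

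The change from E10.5 to E13.5 differed between tissues, by the test of the difference of changes (limma, adjusted p under 0.001 and 2-fold), for 6 results. Limb minus whole embryo was -1.27 for Tgfb3 and 2.56 for Fst in forelimb, and 2.16 for Tgfb2, 1.16 for Tgfbr3 and 1.95 for Fst in hindlimb. Forelimb minus hindlimb was -2.75 for Tgfb2. The 5 comparisons with whole embryo share its 4 arrays of these stages.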

How the results depend on the processing

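The numbers of called members were 27 over the 9 comparisons of limb with whole embryo, 1 between the limbs, 3 against hindlimb of the next stage, 6 between consecutive stages, 17 from E10.5 to E13.5, 5 for limb against whole-embryo changes and 1 for forelimb against hindlimb changes. Leaving out each replicate gave 24 to 28, 1 to 1, 3 to 3, 5 to 7, 16 to 18, 4 to 6 and 1 to 1. With the brightest probe set in place of the average, the consecutive stages gave 10, past 1.5 times the 6, and the others 21, 1, 3, 16, 6 and 1. That setting lost 22 calls and gained 20, and turned 2 of them: Tgfbr3 in E13.5 hindlimb against whole embryo to -0.052 (adjusted p = 0.743) and Tgfbr1 from E10.5 to E13.5 in hindlimb to 0.34 (adjusted p = 5.12e-04). Renewed quantile normalization lost 13 calls and gained 4 (19 calls against whole embryo), separate fits of each comparison lost 6, Tgfb2 once and Fst 5 times, and gained 2 (24), and leaving out the 2 arrays of conflicting labels lost 2 (25), Tgfbr3 (0.97) and Fst (1.02) in E12.5 forelimb against whole embryo. With the folds unchanged, separate fits lost, against whole embryo, Tgfb2 (adjusted p = 0.00819) and Fst (0.00625) in E9.5 forelimb and Fst in E10.5 forelimb (0.0108) and hindlimb (0.0346), and the hindlimb Fst rise to E11.5 (0.00132) and excess over the whole-embryo change (0.00237). The filter on dim genes and the intensity trend gave the same counts.

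Same-numbered forelimb and hindlimb arrays were not taken as pairs, although they may share embryos: of 18 pairs, deviations correlated at -0.11 to 0.35, 9 were over 0.1, and 5 correlated best with their own number. With the replicate number as a block, the call between the limbs stayed at 1 and that of the changes at 1. The 2 whole-embryo arrays per stage and dim probe sets (1445360_at of Tgfb1, 1422019_at of Tgfbr2 and 1458291_at of Inhba, each under 5 log2 on every array) limit what can be called.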
